A study of Rattus norvegicus with 9 samples.

Results

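The transcripts described are those of NF-κB and its feedback inhibitors in rat heart. They comprise the 5 NF-κB subunits (Rela, Rel, Relb, Nfkb1 and Nfkb2), the inhibitors Nfkbia, Nfkbie, Nfkbiz and Tnfaip3, and the activating kinase Ikbkb. These 10 genes were chosen by symbol, and 10 of 10 were found among the 5760 genes listed in at least 1 of the 2 deposited tables. Cardiac RNA of 9 Sprague Dawley rats was sequenced, 3 rats in each of 3 groups. Control rats were sham-operated, the left anterior descending coronary artery not being ligated, and were given distilled water. Model rats had the artery ligated to induce heart failure and were also given distilled water. Cal rats had the same ligation and were given calycosin, an isoflavone of Astragalus root, by mouth at 80 mg/kg per day. All groups were treated for 28 days from 24 h after surgery.

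NF-κB proteins form dimers that the IκB proteins, among them the products of Nfkbia and Nfkbie, hold in the cytoplasm of resting cells. When receptors for TNF, interleukin 1 or microbial products are engaged, the IκB kinase complex, of which Ikbkb encodes a catalytic subunit, phosphorylates IκB and marks it for degradation, and the freed dimers enter the nucleus. Among the genes that they switch on are their own inhibitors, and in the infarcted heart the pathway is known for driving inflammatory gene expression. The study asked whether calycosin acts on inflammation through this pathway, of which only transcripts are described here.

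The text names each library as its sample column is headed, because the headings of the deposited tables conflict. In the table of Cal and Model, the mean column headed Cal equals the average over the sample columns headed Model in 4288 of 4288 genes, and the mean column headed Model equals that of the columns headed Cal. In the table of Model and Con, where Con is the Control group, the sample columns are headed Cal and Con, and the mean column headed Model equals the mean of the columns headed Cal in 2458 of 2458 genes. By the mean columns, the libraries headed Cal are therefore Model rats, and every direction below would carry the exchanged names. Which naming is right cannot be told from these files. That the second table is titled Model and Con goes with its mean columns. The paper reports tnf mRNA as lowered under calycosin, which is the direction of Tnf by the mean columns and the opposite of that by the sample headings. It also counts more genes lowered than raised under calycosin, which with the deposited scaling is the direction by the sample headings. Reads on the listed genes of a table were between 2860826 and 4659882 per library. Genes were deposited only where they had passed the study's own test, so a gene missing from a table was not analysed here, and passing a second test within a table is no independent support. The label of the tissue fits its defining marker, since Myh6, the cardiac myosin heavy chain, had a normalized count of 335145 on average under the heading Cal and 275029 under Con.

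The deposited annotation places all 10 members on mouse chromosomes, as protein-coding genes with mouse Ensembl identifiers, and names no genome build. It gives Rela (ENSMUSG00000024927) on chromosome 19 from 5637483 to 5648130 and Rel (ENSMUSG00000020275) on chromosome 11 from 23736847 to 23770970. The other subunits are listed as Relb (ENSMUSG00000002983) on chromosome 7 from 19606217 to 19629438, Nfkb1 (ENSMUSG00000028163) on chromosome 3 from 135584655 to 135691547 and Nfkb2 (ENSMUSG00000025225) on chromosome 19 from 46304737 to 46312090. Of the inhibitors it gives Nfkbia (ENSMUSG00000021025) on chromosome 12 from 55489410 to 55492647 and Nfkbie (ENSMUSG00000023947) on chromosome 17 from 45555703 to 45563169. The remaining entries are Nfkbiz (ENSMUSG00000035356) on chromosome 16 from 55811375 to 55838899, Tnfaip3 (ENSMUSG00000019850) on chromosome 10 from 19000910 to 19015657, and the kinase gene Ikbkb (ENSMUSG00000031537) on chromosome 8 from 22659212 to 22706589.

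The κB consensus, the 10-base sequence that NF-κB dimers bind, was looked for on both strands in the promoters of the members. RefSeq windows of the rat assembly GRCr8, from 250 bases before to 50 after the gene start, were matched for 8 of the 10 genes (not for Relb and Ikbkb). At least 1 match was found in 7 of these 8, all but Rela, and in 7.51% of all 33469 windows. The stretches below run 5′ to 3′ along the gene and are shown because these members had transcript differences described further on. Capitals mark the matches.

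Tnfaip3: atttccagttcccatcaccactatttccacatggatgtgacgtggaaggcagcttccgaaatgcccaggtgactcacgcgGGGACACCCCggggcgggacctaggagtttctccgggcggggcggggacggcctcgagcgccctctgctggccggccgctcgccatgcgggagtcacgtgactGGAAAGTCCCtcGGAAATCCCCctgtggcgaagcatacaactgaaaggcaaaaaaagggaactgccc

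Nfkbiz: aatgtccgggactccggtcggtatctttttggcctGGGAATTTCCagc

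Nfkbia: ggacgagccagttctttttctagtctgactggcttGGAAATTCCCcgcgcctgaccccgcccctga

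Nfkbie: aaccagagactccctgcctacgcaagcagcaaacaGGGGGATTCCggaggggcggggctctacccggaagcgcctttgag

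Rel: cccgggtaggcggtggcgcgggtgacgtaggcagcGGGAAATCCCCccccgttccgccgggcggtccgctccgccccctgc

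Nfkb2: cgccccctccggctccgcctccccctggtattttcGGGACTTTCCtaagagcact

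Nfkb1: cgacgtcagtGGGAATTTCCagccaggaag

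The Tnfaip3 stretch lies on the minus strand at chr1:15543980-15544229 and holds 3 separate matches, whereas 0.457% of all windows hold at least 2. Those of Nfkbiz (plus strand, chr11:58251673-58251720) and Nfkb1 (minus strand, chr2:226805440-226805469) carry the same letters in their matches. The Nfkbia stretch is at chr6:78597073-78597138 on the minus strand and that of Nfkbie at chr9:22947992-22948071, also on the minus strand. Rel (minus strand, chr14:101921975-101922055) has a second match outside the stretch shown, and both of its matches read as consensus on both strands, overlapping themselves. The Nfkb2 stretch is on the plus strand at chr1:255108319-255108373. A match describes letters only, and binding was not measured.

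Set against Con, all 9 listed members were higher in the libraries headed Cal, from 2.44-fold for Nfkb1 to 48.8-fold for Tnfaip3 as ratios of means. The inhibitors Tnfaip3 and Nfkbiz differed most and the subunits Nfkb1 and Nfkb2 least. Called genes had an adjusted p under 0.05, from limma with Benjamini-Hochberg adjustment over all 2458 listed genes, and a log2 fold change beyond 1. By this rule 9 of 9 listed members were called higher and 0 lower, against 18.0% of all listed genes called higher and 10.9% called lower, and 9 of 9 passed the adjusted p alone, as did 99.8% of listed genes. The median log2 fold change was 2.50 over the 9 members and 0.37 over all listed genes. The members were chosen with earlier results of these data known, so the excess over these shares is no independent support. The 3 libraries headed Cal lay above the 3 headed Con for each of the 9, as they did for 58.8% of listed genes, and 97.4% of listed genes had no overlap in either direction. A two-sided exact permutation test of 3 libraries against 3 gave p = 0.1 for each of the 9, the smallest it can give. In bulk heart RNA, more cells of a type and more RNA per cell cannot be told apart.

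**Figure D1:**
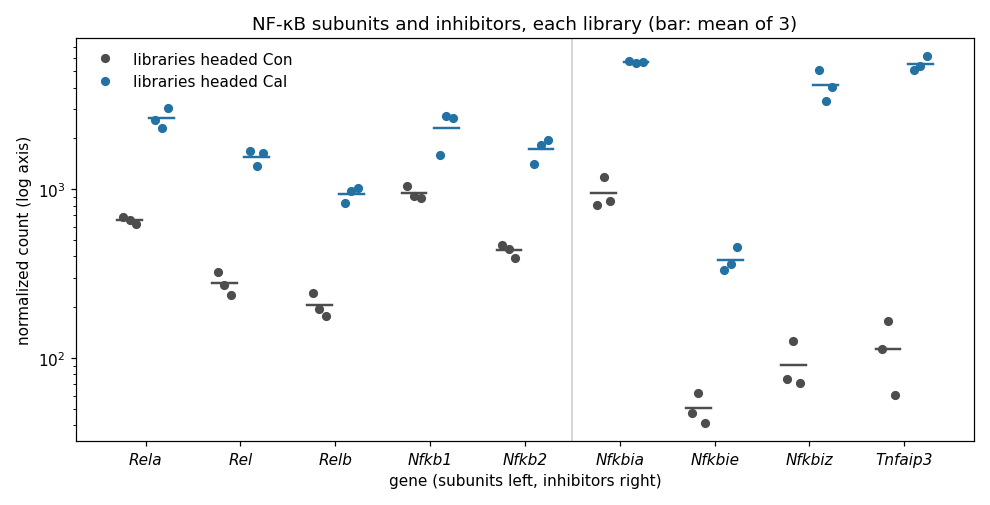
Normalized count (log axis) of the 9 members listed for the libraries headed Cal and Con, with 1 point per library and a bar at the mean of 3. For each gene the 3 points headed Cal lie above the 3 headed Con, and the distance is widest for Tnfaip3 and Nfkbiz.

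Among the subunits, Rela encodes the partner of the classical dimer that carries the activating domain. Its normalized counts were 684, 657 and 622 in the libraries headed Con and 2565, 2306 and 3034 in those headed Cal, a 4.03-fold ratio of means. The lowest library headed Cal was thus far above the highest headed Con, and the log2 fold change was 2.0 ± 0.11 (SE, limma adjusted p = 3.53e-06). Rel, whose product c-Rel is best known from lymphocytes and myeloid cells, had 322, 270 and 238 in the libraries headed Con and 1685, 1366 and 1633 in those headed Cal. It had the largest ratio of the subunits, 5.64-fold, with a log2 fold change of 2.50 ± 0.14 (SE, limma adjusted p = 3.43e-06). Relb encodes the partner used mainly in the alternative pathway, and its normalized counts were 242, 194 and 178 against 834, 979 and 1012 in the libraries headed Cal. The groups were again well apart, with a 4.59-fold ratio and a log2 fold change of 2.20 ± 0.14 (SE, limma adjusted p = 9.13e-06).

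Nfkb1 and Nfkb2 encode precursors that are processed into the subunits without an activating domain. The normalized counts of Nfkb2, the precursor of the alternative pathway, were 470, 446 and 394 in the libraries headed Con and 1410, 1841 and 1969 in those headed Cal. This was a 3.99-fold ratio with a log2 fold change of 1.98 ± 0.14 (SE, limma adjusted p = 1.24e-05). Nfkb1 had 1042, 915 and 889 in the libraries headed Con and 1599, 2703 and 2635 in those headed Cal. Its first library headed Cal was well under the other two, so that the coefficient of variation in this group was 26.7%, the highest of the 9 members there. The log2 fold change of Nfkb1 was 1.25 ± 0.19 (SE, limma adjusted p = 0.000910), and it was the only one of the 9 whose log2 fold change fell below 1 under another scaling of the libraries, to 0.96 with median-ratio scaling and 0.80 with quantile normalization.

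The inhibitors of IκB type act on the dimers directly. Nfkbia encodes IκBα, the classical feedback inhibitor, and was the most abundant member per kilobase in both groups. Its normalized counts were 807, 1186 and 848 in the libraries headed Con and 5762, 5593 and 5706 in those headed Cal. The 3 libraries headed Cal were close to each other, with a coefficient of variation of 1.52%, and the 6.01-fold ratio had a log2 fold change of 2.61 ± 0.14 (SE, limma adjusted p = 2.75e-06). Nfkbie, which encodes IκBε, was the lowest of the 9 in both groups by normalized count, with 47.5, 61.9 and 41.5 in the libraries headed Con and 331, 363 and 456 in those headed Cal. At least 41 reads lay behind each of these values, and the 7.62-fold ratio had a log2 fold change of 2.91 ± 0.20 (SE, limma adjusted p = 1.06e-05).

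Nfkbiz encodes IκBζ, a nuclear protein of the IκB family that acts as a co-regulator of a subset of NF-κB targets. Its normalized counts were 75.5, 126 and 70.9 in the libraries headed Con, as opposed to 5066, 3329 and 4053 in those headed Cal, a 45.8-fold ratio. The lowest library headed Cal was 26.5 times the highest headed Con, with a log2 fold change of 5.53 ± 0.23 (SE, limma adjusted p = 9.75e-07). Tnfaip3 encodes A20, a ubiquitin-editing enzyme that ends signalling upstream of the IκB kinase. It had 114, 167 and 60.7 in the libraries headed Con and 5116, 5396 and 6145 in those headed Cal. Although the libraries headed Con had a coefficient of variation of 46.7%, the widest among the members, the groups were separated 30.6-fold at their nearest values. The log2 fold change was 5.71 ± 0.31 (SE, limma adjusted p = 2.93e-06).

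**Figure D2:**
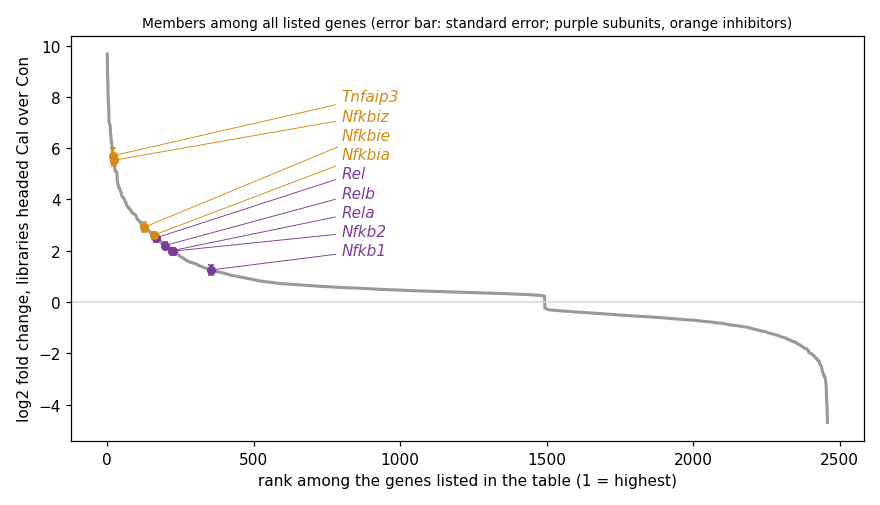
Log2 fold change, Cal over Con by heading, for all 2458 listed genes in descending order (grey line), with the 9 members as points and standard errors as bars. Tnfaip3 and Nfkbiz hold ranks 21 and 23, Nfkbie and Nfkbia ranks 126 and 159, and the subunits ranks 166 to 354.

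Ordered by log2 fold change among the 2458 listed genes, Tnfaip3 was at rank 21 and Nfkbiz at rank 23. The other inhibitors Nfkbie (rank 126) and Nfkbia (rank 159) came next, and the subunits followed from Rel (rank 166) over Relb (197), Rela (221) and Nfkb2 (224) to Nfkb1 (354). Rela and Nfkb2, with 2.0 and 1.98, differed by less than their standard errors, as did Tnfaip3 and Nfkbiz, and no test of one member against another was made.

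Levels of different genes were compared per kilobase of the deposited gene length, which comes with the mouse identifiers (2716 bases for Rela, 12061 for Nfkb1). The order of genes, and the subunit shares given after it, rest on these lengths. In the libraries headed Con the order was Nfkbia (588 ± 129 normalized counts per kilobase, SD, n = 3), Rela (241 ± 11.3), Nfkb2 (133 ± 11.8), Nfkb1 (78.7 ± 6.78), Relb (52.8 ± 8.58) and Rel (37.1 ± 5.71). In this stretch each gene lay above the next in all libraries. Nfkbiz, Nfkbie and Tnfaip3 were lowest with 18.1 ± 6.06, 16.5 ± 3.44 and 15.7 ± 7.35, and their libraries overlapped. In the libraries headed Cal, Nfkbia still led with 3532 ± 53.6. Rela (970 ± 136), Nfkbiz (827 ± 174) and Tnfaip3 (768 ± 73.7) followed with overlapping libraries, so that Nfkbiz and Tnfaip3, among the lowest members in the libraries headed Con, overlapped the most abundant subunit. Nfkb2 (529 ± 89.0) was next, above an overlapping group of Relb (242 ± 24.4), Rel (209 ± 22.9), Nfkb1 (192 ± 51.3) and Nfkbie (126 ± 21.3).

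Each subunit was also expressed as its share of the 5 subunits in the same library, a measure that a single scaling factor per library does not change. Rela was 44.5% ± 1.46 of subunit transcripts per kilobase in the libraries headed Con and 45.3% ± 3.83 in those headed Cal (SD, n = 3), and Nfkb2 was 24.5% ± 0.607 and 24.6% ± 2.52. For both genes the groups overlapped. The share of Nfkb1 was lower in every library headed Cal, with 14.5% ± 0.383 in the libraries headed Con and 8.90% ± 2.02 in those headed Cal. Rel had a higher share in the libraries headed Cal without overlap, 9.84% ± 1.53 against 6.81% ± 0.506, and Relb likewise, 11.3% ± 0.744 against 9.69% ± 0.817. The ratio of Nfkb2 to Nfkb1, the precursors of the alternative and the classical pathway, was 1.65, 1.79 and 1.62 in the libraries headed Con and 3.23, 2.50 and 2.74 in those headed Cal, which do not overlap.

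**Figure D3:**
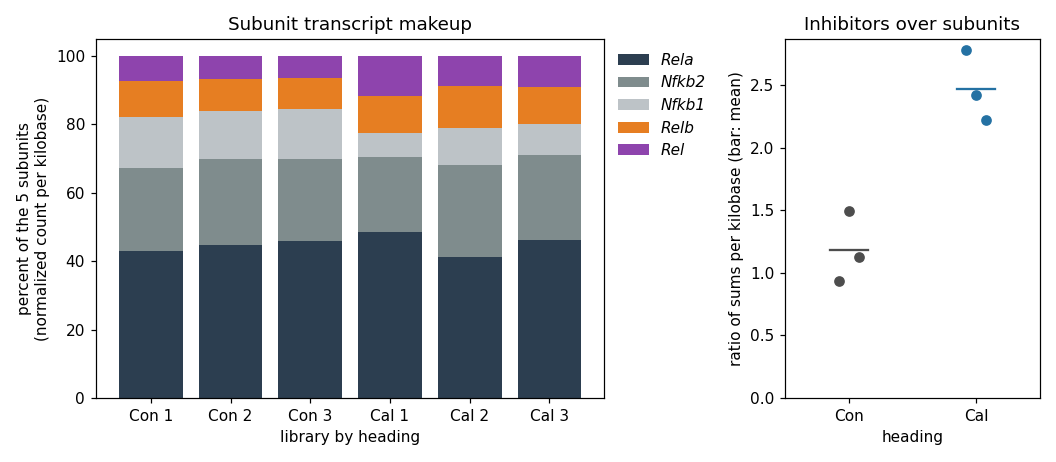
Left, share of each subunit in the 5 NF-κB subunits by library, in percent of normalized count per kilobase. Right, the sum of Nfkbia, Nfkbie, Nfkbiz and Tnfaip3 over the sum of the 5 subunits, 1 point per library with a bar at the mean. Rela stays near 45% in both groups while Nfkb1 takes a smaller share in the libraries headed Cal, and the ratio of inhibitors to subunits lies between 0.934 and 1.49 in the libraries headed Con and between 2.22 and 2.78 in those headed Cal.

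The sum of the 5 subunits per kilobase was 3.95-fold higher in the libraries headed Cal, and the sum of the 4 inhibitors was 8.23-fold higher. The ratio of the inhibitor sum to the subunit sum was 0.934, 1.49 and 1.13 in the libraries headed Con and 2.78, 2.42 and 2.22 in those headed Cal. The groups did not overlap, and the ratio was above 2 in every library headed Cal. Nfkbia made up most of the mean inhibitor sum, 588 of 638 under the heading Con and 3532 of 5253 under Cal. Nfkbiz, whose product is a nuclear co-regulator, is counted in this sum with 18.1 under Con and 827 under Cal. The ratio rests on the deposited gene lengths and does not count transcripts or measure inhibition. Among the inhibitors, Tnfaip3 was 0.0262 ± 0.00891 of Nfkbia in the libraries headed Con and 0.218 ± 0.0212 in those headed Cal, and Nfkbiz was 0.0303 ± 0.00362 and 0.234 ± 0.0458 of it (SD, n = 3). Nfkbie kept closer to Nfkbia, with ratios of 0.0282 ± 0.00269 and 0.0357 ± 0.00605, and its libraries overlapped between groups. These ratios use the values of the same genes and libraries as the fold changes above and were given no test.

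The table of Cal and Model lists 2 members, Rel and Ikbkb, and its libraries headed Cal are the same as in the other table, with identical reads in 986 of 986 shared genes. Rel was higher and Ikbkb lower in the libraries headed Cal, which the mean columns of this table name Model. Of the 2 members 1 was called higher and 0 lower, against 28.4% of 4288 listed genes called higher and 31.6% called lower. Both passed the adjusted p alone, as 99.6% of listed genes did, and neither overlapped between groups, as for 98.2% of them. The exact permutation test again gave its smallest value, p = 0.1, for each. The median log2 fold change over all genes of this table was -0.52.

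Rel had normalized counts of 514, 882 and 509 in the libraries headed Model and 1506, 1218 and 1465 in those headed Cal. Its second library headed Model was above the other two but under every library headed Cal. On the log2 scale Cal exceeded Model by 1.18 ± 0.23 (SE, limma adjusted p = 0.00290), and the ratio of means was 2.20. Rel was the only member listed in both tables, so its level could be followed over the 3 groups once the libraries headed Con were set on the same scale through the shared libraries. On that scale the normalized count was 248 ± 38.2 under the heading Con, 635 ± 214 under Model and 1396 ± 156 under Cal (SD, n = 3). Relative to Con this was 2.56-fold and 5.64-fold, and the 3 groups did not overlap. No test was made across the tables, which share the libraries headed Cal and were normalized separately.

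**Figure D4:**
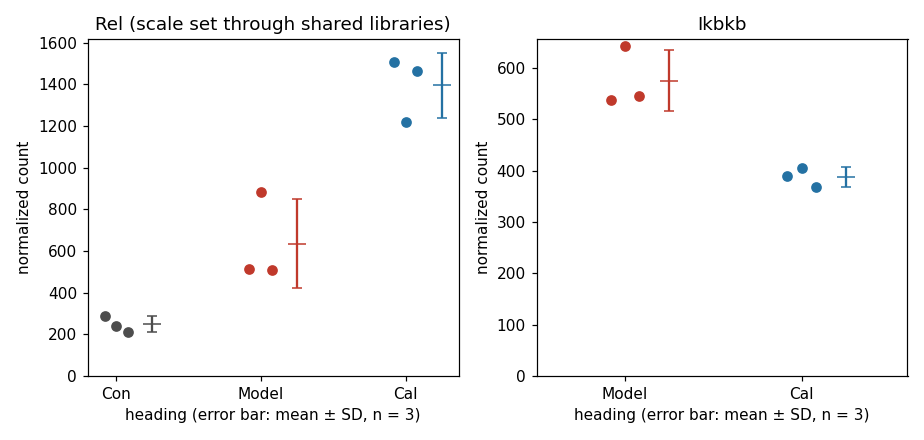
Normalized counts of Rel (left, libraries headed Con set on the scale of the other table) and Ikbkb (right), 1 point per library with mean ± SD (n = 3) beside them. Rel is 248 in Con, 635 in Model and 1396 in Cal on average, and Ikbkb is 575 in Model and 388 in Cal.

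Ikbkb encodes IKKβ, the kinase subunit that phosphorylates IκBα in the classical pathway. Its normalized counts were 538, 643 and 545 in the libraries headed Model and 389, 405 and 368 in those headed Cal. The Model values all exceeded the Cal values, by 1.48-fold on average, with a log2 ratio of Cal to Model of -0.56 ± 0.14 (SE, limma adjusted p = 0.00663). The fold change limit was not reached, and the value was close to the median of all listed genes, -0.52. With median-ratio scaling the log2 fold change was -0.27 (limma adjusted p = 0.10) and with quantile normalization -0.32 (limma adjusted p = 0.0657), neither past the threshold. Both scalings were computed from the listed genes alone, all of which had passed the study's own test.

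The deposited annotation gives the transcription factor family of each gene, and the Rel homology family in it holds the 5 subunits and the NFAT factors, which bind DNA through a related domain. In the table of the libraries headed Cal and Con the other listed family members were Nfatc1, Nfatc3 and Nfat5, with log2 fold changes of 0.90, -0.51 and -0.32. Of the 8 listed family members 5 were called, all of them higher, beside 18.0% of all listed genes called higher and 10.9% called lower. These 5 were the NF-κB subunits, of which 4 were called with median-ratio scaling or quantile normalization. In the table of Cal and Model, Rel was listed with Nfatc1, Nfatc2 and Nfatc4, which all were called higher in the libraries headed Cal with log2 fold changes of 1.91, 2.45 and 1.16. Of all genes listed there, 28.4% were called higher.

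The rest of the pathway was described through 6 lists, whose counts stand beside 18.0% of all listed genes called higher and 10.9% called lower against Con. The lists were chosen with earlier results of these data known, so a count above these shares is no independent support. Between the libraries headed Cal and Con no listed gene of any of the 6 was called lower, although 2 adaptors or kinases were with median-ratio scaling. Of 11 further IκB proteins and IκB kinase subunits, 5 were listed and 4 called higher, among them Nfkbid, a nuclear IκB protein, at 190 ± 40.4 against 7.48 ± 0.611 normalized counts, too few reads in the libraries headed Con for a fold. Bcl3, another nuclear IκB protein, was at 1075 ± 342 against 115 ± 22.2 (3.18), and Nfkbib, the gene of IκBβ, at 618 ± 34.2 against 292 ± 42.2 (1.09). Of 36 receptor adaptors and kinases, 15 were listed and 7 called higher, led by the kinase Ripk2 (2.88), the ubiquitin ligase Birc3 (2.87), the kinase Map3k8 (2.62) and the kinase Irak2 (2.39). Of 18 other feedback regulators, 9 were listed and 6 called higher, with log2 fold changes of 5.12 for the cytokine signalling suppressor Socs3, 4.03 for the RNase Zc3h12a, 3.70 for the mRNA decay factor Zfp36 and 3.67 for the A20-binding protein Tnip3.

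Upstream, 3 of 11 ligands were listed and all 3 were called higher. Tnf had 595 ± 218 normalized counts under the heading Cal and 10.6 ± 5.75 under Con, and Il1b had 1609 ± 146 and 18.6 ± 12.8 (SD, n = 3). Il1a was at 279 ± 99.97 and 1.57 ± 1.93, too few reads in the libraries headed Con for a fold. Of 20 receptors, 6 were listed and 4 called higher, namely the pattern recognition receptor Tlr2 (log2 fold change 3.69), its co-receptor Cd14 (3.44), the intracellular sensor Nod2 (3.16) and the costimulatory receptor Cd40 (2.67). Of 34 target genes, 32 were listed and 28 called higher. The neutrophil chemokines Cxcl1 and Cxcl2 were at 21304 ± 869 and 4499 ± 273 under the heading Cal and at 49.1 ± 30.7 and 5.17 ± 3.44 under Con. Il6 (518 ± 246) and the chemokine Ccl4 (744 ± 327) were almost without reads in the libraries headed Con, at 0.337 ± 0.584 and 1.93 ± 0.910.

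**Figure D5:**
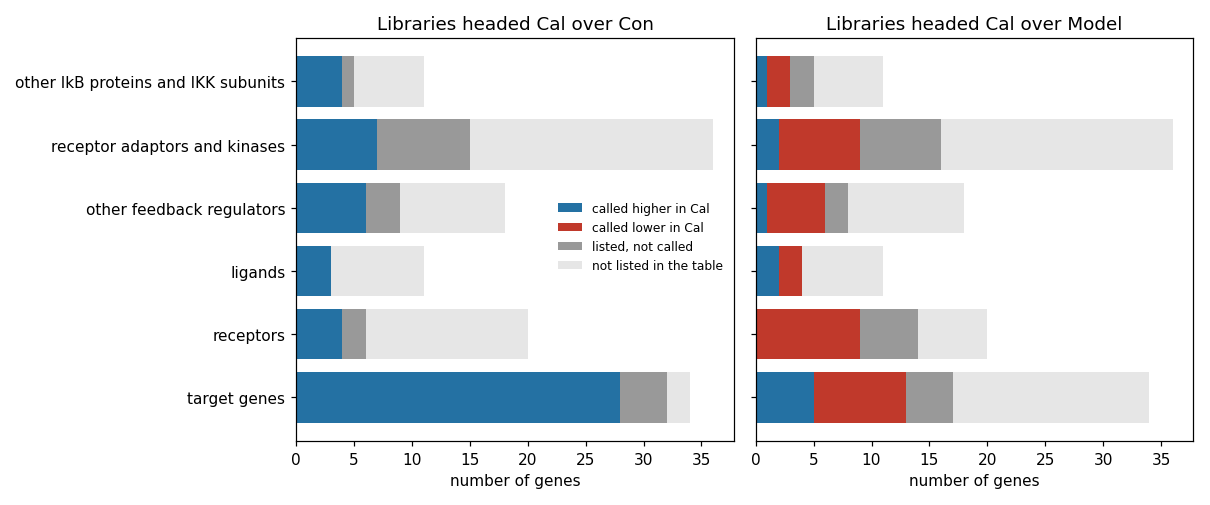
Number of genes of 6 NF-κB pathway lists that were called higher or lower in the libraries headed Cal, listed without a call, or not listed, against Con (left) and against Model (right). Against Con the calls are all higher, with 28 of 34 target genes, whereas against Model 9 of 20 receptors were called lower and none higher (2 higher with median-ratio scaling or quantile normalization). The lists were chosen with earlier results of these data known.

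Between the libraries headed Cal and Model the same lists were called in both directions, beside 28.4% of all listed genes called higher and 31.6% called lower. Among the IκB proteins and kinases 5 were listed, of which Nfkbid (log2 fold change 2.91) was called higher and the IKK-related kinases Ikbke (-2.94) and Tbk1 (-1.71) lower. Of 16 listed adaptors and kinases 2 were called higher and 7 lower, with Irak3 at -3.21, Myd88 at -1.63, Traf1 at -1.42 and Birc2 at -1.33. Of 8 listed feedback regulators 1 was called higher and 5 lower, including Nlrc5 (-3.99), Usp18 (-3.50), Socs1 (-2.44) and Tnip1 (-1.97). Among 4 listed ligands, Tnf (2.04) and Il1b (2.02) were higher in the libraries headed Cal, Il33 (-2.99) was lower, and 2 in all were called in each direction. No receptor was called higher, although 2 were with median-ratio scaling or quantile normalization, and 9 of 14 listed were called lower, with Tlr3 at -2.83, Cd40 at -2.40, Nod1 at -2.01 and Tnfrsf1a at -1.79. Of 17 listed targets 5 were called higher and 8 lower, with values of -4.62 for Ccl5, -4.09 for Csf3, 3.40 for Plau and -3.30 for Cxcl5.

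Some pathway genes were listed in both tables, and 3 of them, chosen after their values were seen, are given beside Rel, with the libraries headed Cal as the shared reference. Ikbke had 48.9 ± 2.48 normalized counts under Cal and 17.2 ± 1.80 under Con in 1 table, and 43.7 ± 2.10 under Cal and 348 ± 73.4 under Model in the other (SD, n = 3). Cd40 had 395 ± 113 and 60.8 ± 14.2 in Cal and Con, and 353 ± 102 and 1894 ± 659 in Cal and Model. Both genes were thus highest in the libraries headed Model, whereas Rel and Nfkbid were highest in those headed Cal. Nfkbid had 190 ± 40.4 and 7.48 ± 0.611 in Cal and Con, and 170 ± 36.3 and 23.7 ± 11.4 in Cal and Model.

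Markers of cell types that a piece of heart can hold were read beside these results. Against Con, 2 of 12 neutrophil markers were listed and both were called higher, beside 18.0% of all listed genes called higher and 10.9% called lower. Their summed normalized counts were 48.5 to 183 under the heading Cal and 13 to 28.5 under Con. Of 13 monocyte or macrophage markers 2 were listed, with sums of 658 to 775 against 1016 to 1096, and 0 of 13 T or NK cell markers were listed. The 1 listed B cell marker of 8 was at 69.5 to 146 against 153 to 224. Endothelial markers (8 of 10 listed) summed to 16081 to 17639 against 22008 to 25747, and fibroblast markers (5 of 10) to 9597 to 12424 against 14495 to 16100. Cardiomyocyte markers (3 of 12) summed to 362327 to 364968 against 269921 to 340314. Most of this sum was Myh6, whose log2 fold change of 0.29 went to 0.008 with median-ratio scaling and 0 with quantile normalization. Of the markers listed against Con, 1 macrophage, 1 fibroblast and 2 endothelial markers were called lower, while Cldn5, an endothelial marker, was called higher. The summed neutrophil level was thus higher in the libraries headed Cal, from low counts, and the macrophage, endothelial and fibroblast sums lower.

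In the table of Cal and Model, 9 of 12 neutrophil markers were listed. All 9 were called lower in the libraries headed Cal (8 with quantile normalization), while of all listed genes 31.6% were called lower and 28.4% higher. The neutrophil sums were 80.3 to 248 against 941 to 1122 in the libraries headed Model. Mpo was at 0 in all 3 libraries headed Cal, and the means of Cxcr2, Camp and Ltf there were only 2.07, 0.626 and 1.83 normalized counts. Of 13 T or NK cell markers 3 were listed, with sums of 6.46 to 12 against 99.4 to 207. The 1 listed B cell marker was at 2.82 to 11.1 against 17.3 to 57.3. Monocyte or macrophage markers (10 of 13) summed to 6968 to 8566 against 3423 to 4712, with 5 called higher and 4 lower. Those called higher were Csf1r, Lyz2, Cd163, C1qa and C1qc, and those called lower Itgam, Ccr2, Fcgr1 and Ly6c2. Endothelial markers (8 of 10) summed to 12512 to 14885 against 5063 to 6770, and fibroblast markers (5 of 10) to 19172 to 23291 against 17132 to 24097 with 2 called higher and 0 lower. Of 12 cardiomyocyte markers only the natriuretic peptide genes Nppa and Nppb were listed, with sums of 2024 to 2811 against 3836 to 6950. Nppa was called lower (log2 fold change -1.04), but not with median-ratio scaling (-0.74) or quantile normalization (-0.60). In this table Rel was therefore higher where endothelial and macrophage sums were higher and neutrophil and lymphocyte sums lower. Against Con, the endothelial and macrophage sums were lower in the libraries headed Cal and the neutrophil sum higher. The macrophage sums of the 2 comparisons hold different markers, with only Ccr2 in both. Ccr2 was lower in the libraries headed Cal against Con (log2 fold change -2.11) and against Model (-1.56). The part of these cells in the results of either table was not tested.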

How the data were processed

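Poly-A RNA of 9 rat hearts was sequenced by the authors as 150-bp paired-end reads. Alignment was to rat sequences and testing by DESeq2 according to the paper, the submitters' processing notes name Bowtie 0.12.2 and the mouse builds mm8 and mm9, and all identifiers in the tables are mouse Ensembl genes. Which genome gave the counts is therefore unclear, and the deposited coordinates are mouse positions of an unnamed build. The deposited signal is a count per gene divided by 1 size factor per library (0.820 to 1.17), and whole reads were recovered for 100% of values (tolerance 0.05 reads). The authors' p-values and fold changes were deposited too and were not used, and the deposited gene length is in bases.

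Each table was fitted alone with limma 3.58.1 (R 4.3.3, trended prior variance) on log2(normalized count + 1), which understates changes of low genes. P-values were adjusted over all listed genes, and a gene was called at an adjusted p under 0.05 with a log2 fold change larger than 1 in size. Each library is a separate rat. Exact permutation tests used scipy 1.17.1. The scripts were tested on simulated data. The members and lists were chosen with earlier results of these data known. From each pathway list up to 4 called genes with the largest log2 fold change were named, if groups did not overlap and the higher mean was at least 50. Alternatives comprised pseudocounts (0.1, 10), a minimum mean of 10, median-ratio scaling, quantile normalization, edgeR 4.0.16 and DESeq2 1.42.0 on recovered reads, a replicate block, dropping the fold change limit, an adjusted p limit of 0.01, and leaving out each library. The chi-square per degree of freedom between replicates was 10.9 to 81.1, more than a library counted a second time would give. Promoter windows came from RefSeq (GRCr8). Total library depth is unknown.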

Additional observations from a re-analysis of the deposited data

How the results depend on the processing

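In the comparison with Con, each of the 9 members kept its direction and an adjusted p under 0.05 (limma, edgeR or DESeq2) under all 14 alternatives. Log2 fold changes ranged from 0.80 to 1.49 for Nfkb1 and from 5.32 to 6.04 for Tnfaip3, and 8 of the 9 stayed past the fold change limit with median-ratio scaling and with quantile normalization. Rel against Model ranged from 1.05 to 1.59 and Ikbkb from -0.61 to -0.27. Without a fold change limit, 4272 genes were called against Model, 2 of them members, and 2454 against Con. Leaving out each library gave 2344 to 2704 called genes against Model and 679 to 775 against Con, where 2575 and 712 were called with all libraries. edgeR called 2593 and 716 genes, and DESeq2 2596 and 717.

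Both scaling alternatives were computed from the listed genes alone, which had all passed the study's own test. They moved the middle of these genes, by nearly the same amount for each gene with median-ratio scaling and by unequal amounts with quantile normalization. The median log2 fold change went from -0.52 to -0.23 (median-ratio) and -0.10 (quantile) against Model, and from 0.37 to 0.09 and -0.04 against Con. Calls in the 2 directions (higher, then lower under the heading Cal) went from 1219 and 1356 to 1646 and 1047 (median-ratio) and 1393 and 1175 (quantile) against Model, and from 443 and 269 to 342 and 447, and 348 and 387, against Con. Against Con, 2 adaptors or kinases were then called lower with median-ratio scaling and 1 with quantile normalization, and against Model 2 receptors were called higher under either. No called gene of the pathway lists changed direction.

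Libraries with the same replicate number come from different rats, and their deviations were not correlated (-0.119 to 0.11 in the table of Cal and Model, -0.14 to -0.023 in the other), so the numbers do not pair them. With the replicate block 2574 and 713 genes were called. Only listed genes and 3 rats a group were available, and levels under about 10 reads, such as those of Il6 in the libraries headed Con, limit any fold.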
